A study of Mus musculus with 34 samples.

Results

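Methylated DNA immunoprecipitation (mDIP) on CpG island arrays was used here to set insulin-sorted mouse beta cells against whole pancreas, the organ from which they come. The comparison takes 3 of the 34 arrays of the series, 1 of beta cells and 2 of pancreas, and all 13341 autosomal islands that had a score on every array. The question it addresses is which islands carry more or less methylation in a purified cell type than in the mixed tissue around it. Beta cells were prepared from the islets of transgenic Pdx1-GFP mice aged 2 to 8 months. Insulin antibodies, and not the GFP, served to sort the cells, which had been released by trypsin from islets chosen by hand after a collagenase digest. The sex of these mice and the number pooled are not given in the sources used here. Pancreas DNA came from male mice 3 months old, and the methods name C57Bl/6 as the source of mouse DNA. The other 14 adult arrays served to estimate the spread between arrays. They are 2 for each of 7 tissues (spleen, muscle, lung, liver, kidney, colon and brain). Their mice were also 3 months old, and 7 of these arrays are labelled female and the rest male. For Min6, an insulin-producing insulinoma line, 1 array is given beside the results. So is 1 array of aTC, a glucagon-producing line labelled as an alpha cell line. Arrays of 5 embryos, each of a different embryonic day, are used further below. The same holds for 1 array each of the undifferentiated embryonic stem (ES) cell lines EB5, TT2 and J1.

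CpG islands are stretches rich in the dinucleotide CpG, many of them at gene starts, and most are free of methylation in normal tissues. Islands inside genes, at imprinted genes and at germline genes are among those that carry methylation in somatic cells. Beta cells are the insulin-secreting cells of the islets and make up a small share of the pancreas, most of which is acinar tissue, with ducts, vessels, blood and mesenchyme. A pancreas value is therefore an average over many cell types, and a different share of cells and a different methylation level per cell cannot be told apart in it.

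The score of an island is the mean Z-score of its probes. Each probe's Z-score is its log ratio of antibody-bound over input DNA, scaled over all probes of that array, so a score of 0 is the array's own average and scores have no absolute percentage. By the thresholds of the study, islands above 0.75 count as methylated and those below 0 as unmethylated. The study set these on Z-scores adjusted for probe Tm (melting temperature), a step left out here. The median island had 5 probes over 656 bases. Positions below are those of mm9, the build named in the file of the beta cell array, and distances are from the annotated start of the gene. The pancreas files name no build, and their probes were joined by identity.

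Krt7 was lower in beta cells than on every tissue array and Mlkl higher, both without a call, and Olfm1 was called higher. Sequences before the start are shown for these 3 genes, whose islands lie at gene starts and are not printed in full. Each is the 250 bases before the start in RefSeq (GRCm38.p6), read 5′ to 3′ on the strand of the gene, with every CpG in capitals, since methylation in somatic cells falls mainly on the C of this pair. RefSeq gives Olfm1 more than 1 start, and which of the 2 shown belongs to the island was not resolved between builds. The 2 starts lie further apart than the 981 bases of the island, so at most 1 of them does. Mlkl was chosen after its values were seen. The windows are chr15:101412153-101412402 for Krt7, chr2:28192843-28193092 and chr2:28205439-28205688 for Olfm1 and chr8:111338206-111338455 for Mlkl, the last on the minus strand.
Krt7: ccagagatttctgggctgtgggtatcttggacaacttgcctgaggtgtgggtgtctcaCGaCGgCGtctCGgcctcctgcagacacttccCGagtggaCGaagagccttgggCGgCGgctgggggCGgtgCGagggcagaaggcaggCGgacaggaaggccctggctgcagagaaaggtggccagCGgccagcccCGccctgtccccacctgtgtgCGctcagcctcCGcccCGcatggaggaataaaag
Olfm1, start 1: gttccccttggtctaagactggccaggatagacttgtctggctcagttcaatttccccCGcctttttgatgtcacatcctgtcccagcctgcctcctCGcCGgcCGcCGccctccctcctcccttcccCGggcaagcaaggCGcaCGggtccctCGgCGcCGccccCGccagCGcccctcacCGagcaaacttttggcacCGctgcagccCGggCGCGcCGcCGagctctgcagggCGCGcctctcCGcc
Olfm1, start 2: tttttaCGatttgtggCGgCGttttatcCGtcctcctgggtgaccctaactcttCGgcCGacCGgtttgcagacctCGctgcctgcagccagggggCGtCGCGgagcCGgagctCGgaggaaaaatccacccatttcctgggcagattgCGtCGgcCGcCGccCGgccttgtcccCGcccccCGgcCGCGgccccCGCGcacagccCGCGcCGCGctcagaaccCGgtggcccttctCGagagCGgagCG
Mlkl: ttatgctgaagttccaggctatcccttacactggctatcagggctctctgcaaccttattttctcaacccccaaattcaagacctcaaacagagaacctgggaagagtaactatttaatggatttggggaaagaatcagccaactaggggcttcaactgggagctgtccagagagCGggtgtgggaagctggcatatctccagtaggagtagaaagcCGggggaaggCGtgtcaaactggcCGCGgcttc
They hold 16, 23, 32 and 5 CpG in that order. Over 32851 start sites the same window has a median of 6, and 92.1% of the windows hold at least 1. The letters are those of the reference and say nothing of methylation.

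The arrays differ in ways that the groups do not separate. The beta cell array was read with version 10.9.1.1 of the scanner software and all 16 adult tissue arrays with 10.5.1.1. It lay on another slide and was scanned on another day than either pancreas array. Its cells came from transgenic mice of 2 to 8 months and unstated sex, and the pancreas from males of 3 months. None of these differences can be told apart from the cell source. The SD of the log2 ratio was 1.13 on the beta cell array and 1.38 and 1.69 on the pancreas arrays. Input signals stood at a median of 4.5 times background in beta cells and 4.75 and 6.73 times in pancreas, within 3.07 to 6.98 over the adult arrays. The pancreas arrays differed from each other by a median of 0.196 per island, and by over 0.5 at 1578 islands (11.8%). Whether the sorted cells are beta cells cannot be checked by expression here. Of 14 beta cell markers, 8 have a scored island, and those of Ins1, Ins2, Slc2a2, Slc30a8, Iapp and Ucn3 do not.

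Few islands passed a test between beta cells and pancreas. With limma, fitted over beta cells and all 8 tissues (17 arrays, 8 residual degrees of freedom), 10 of 13341 islands (0.075%) had an adjusted p under 0.05. Of these, 8 (0.06%) were higher and 2 (0.015%) lower in beta cells. Without adjustment 1315 islands had a p under 0.05, 681 of them higher and 634 lower. The lone beta cell array gives no spread of its own and was assumed to vary as the tissue pairs do. In brain, kidney, liver, muscle and spleen the 2 arrays carry different sex labels. These pairs thus came from separate animals, and their spread includes any difference by sex. For pancreas, colon and lung nothing in the labels says whether the 2 arrays came from separate animals. The largest adjusted p among the islands called was 0.0393 and the smallest among the rest 0.0567.

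The largest difference lay downstream of Foxa2, a forkhead factor needed in endoderm and for insulin secretion in beta cells. Its island (chr2:147864276-147864668, 4 probes, 8059 to 8407 bases past the start) scored 2.94 in beta cells and -0.48 and -0.24 on the pancreas arrays. The difference from the pancreas mean was 3.30 ± 0.19 (SE) with an adjusted p of 9.17e-06. Both colon arrays scored 1.97 and 1.84. The other 12 tissue arrays lay below 0, among them liver (-0.60 and -0.54) and lung (-0.70 and -0.86). Min6 scored 0.80 and aTC -1.17. All 4 probes of the island stood above both pancreas arrays in beta cells, and the call held without either pancreas array. A further Foxa2 island (4 probes, before the start) scored 0.79 against 0.20 and -0.18, which also placed it above both pancreas arrays, with no call.

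**Figure D1:**
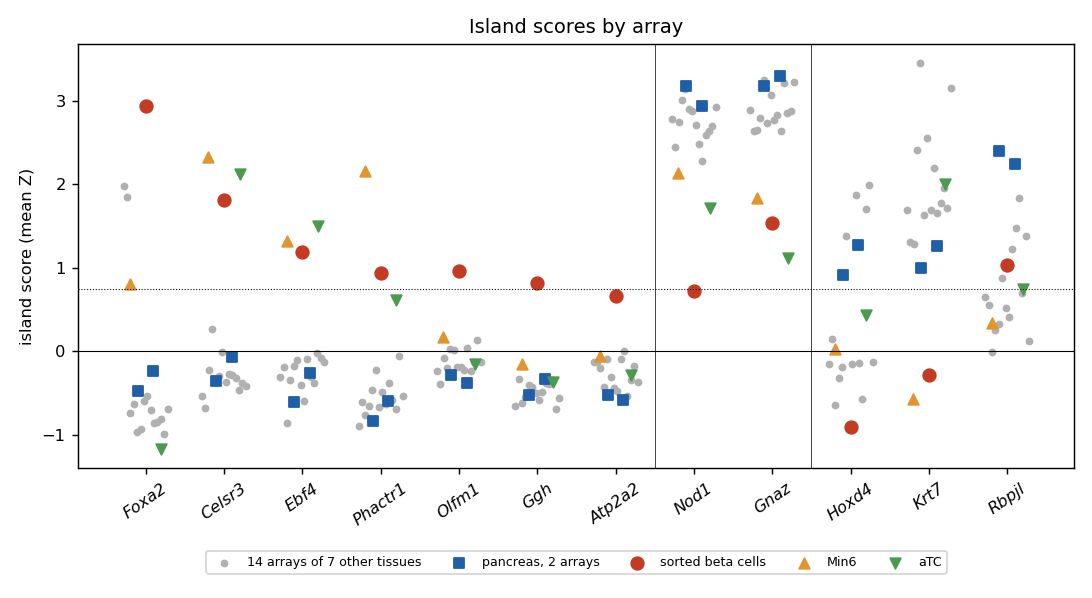
Island score (mean Z, vertical axis) of 12 named islands on each array: the sorted beta cells (red circle), the 2 pancreas arrays (blue squares), 14 arrays of 7 other tissues (grey), Min6 (triangle up) and aTC (triangle down). The 7 islands at the left were called higher and the 2 in the middle lower in beta cells by limma, the 3 at the right were not called, and the dotted line is at 0.75. At Foxa2 only the 2 colon arrays come near the beta cells, while at Nod1 the beta cells at 0.72 lie below all other arrays.

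Celsr3 encodes an atypical cadherin of planar cell polarity that islet cells share with neurons. Its island inside the gene (chr9:108734140-108735306, 13 probes, 5512 to 6634 bases past the start) scored 1.81 in beta cells and -0.36 and -0.07 in pancreas. The 14 other tissue arrays lay between -0.68 and 0.27, with a median of -0.34, below the beta cells throughout. Min6 at 2.32 and aTC at 2.12 were higher than the sorted cells. The difference was 2.03 ± 0.24 (SE), with an adjusted p of 0.00699, and all 13 probes were above both pancreas arrays. The call was lost without pancreas replicate 1 (adjusted p = 0.11). Nearer the start, another Celsr3 island of 9 probes scored 0.63 in beta cells and -0.32 and 0.09 in pancreas.

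The other named islands called higher shared an adjusted p of 0.0393 and a smaller difference. Phactr1, a regulator of protein phosphatase and actin, has an island of 6 probes far inside the gene (chr13:43011636-43012444) that scored 0.93 in beta cells and -0.83 and -0.60 in pancreas, a difference of 1.65 ± 0.24 (SE). Ebf4, a factor of the early B-cell factor family, has an island of 3 probes before its start (chr2:130120453-130120675) with 1.18 in beta cells and -0.60 and -0.26 in pancreas, a difference of 1.62 ± 0.25. Min6 and aTC were also high at the Ebf4 island, at 1.32 and 1.50, and Min6 reached 2.16 at Phactr1. In all 14 other tissue arrays both islands lay below 0. Leaving out either pancreas array took away the calls of both (adjusted p 0.15 to 0.19).

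At 3 islands called higher the sorted cells stood apart from the cell lines too. Olfm1, a secreted glycoprotein of the nervous system, has an island across its start (chr2:28060930-28061910, 6 probes) that scored 0.95 in beta cells, -0.28 and -0.38 in pancreas, 0.17 in Min6 and -0.16 in aTC. Ggh, the gamma-glutamyl hydrolase of folate metabolism, scored 0.81 at its start (chr4:19968906-19969560, 5 probes), against -0.52 and -0.33 in pancreas, -0.15 in Min6 and -0.37 in aTC. Atp2a2, which encodes the calcium pump SERCA2 of the endoplasmic reticulum, scored 0.66 at an island before its start (chr5:122952536-122952855, 3 probes), against -0.53 and -0.58 in pancreas. The Atp2a2 island scored -0.06 in Min6 and -0.29 in aTC. The differences were 1.29 ± 0.19, 1.24 ± 0.19 and 1.22 ± 0.19 (SE) in this order, and none of these calls held without either pancreas array (adjusted p 0.15 to 0.27). At Ggh the difference was 0.03 under another background correction, normexp on the median signals. The remaining island called higher carries no gene name (9 probes, 0.92 in beta cells, -0.64 and -0.81 in pancreas).

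Both islands called lower lie deep inside genes and are methylated in every tissue measured. Nod1 encodes a cytosolic sensor of bacterial peptidoglycan. Its island (chr6:54893888-54894382, 5 probes, 28045 bases or more past the start) scored 0.72 in beta cells, 3.18 and 2.94 in pancreas and 2.28 to 3.14 on the other tissue arrays, a difference of -2.35 ± 0.22 (SE) with an adjusted p of 0.00116. Min6 scored 2.14 and aTC 1.71, so the sorted cells were below both lines, and the call held without either pancreas array. Gnaz, the alpha subunit of a G protein of neurons and islets, scored 1.53 (chr10:74454054-74454525, 5 probes), against 3.18 and 3.29 in pancreas and 2.64 to 3.25 in the other tissues. The difference at Gnaz was -1.71 ± 0.27 (SE) with an adjusted p of 0.0393, and it was lost without either pancreas array (adjusted p 0.16 and 0.27). All 5 probes of each island lay below both pancreas arrays, and at Gnaz the beta cell score still exceeded 0.75.

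**Figure D2:**
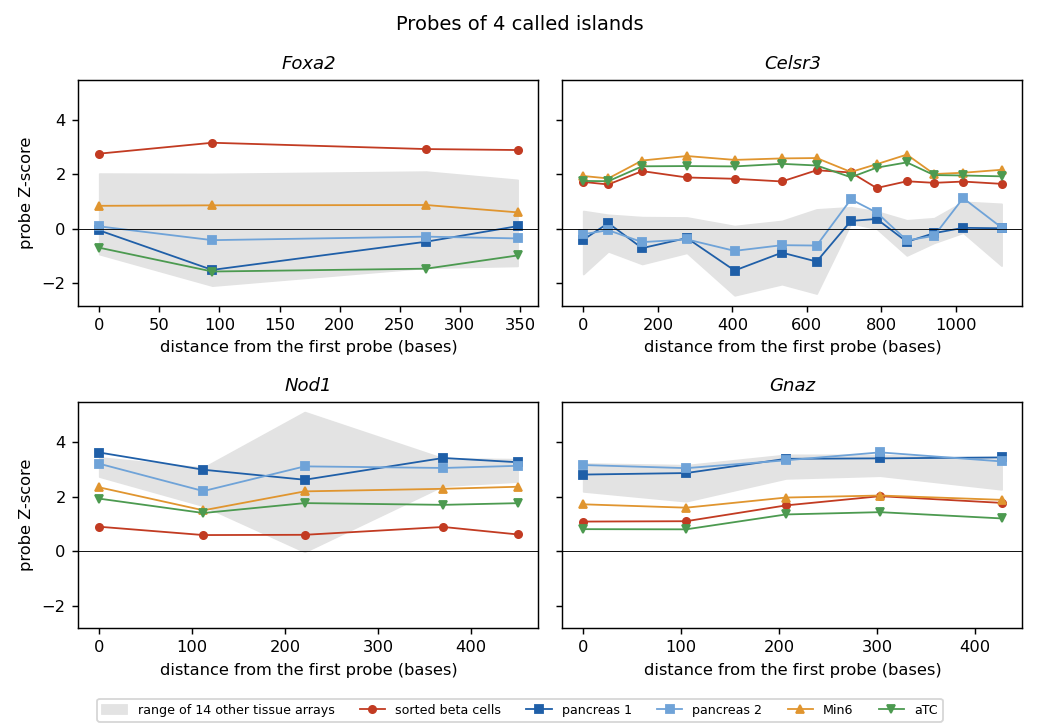
Z-score of each probe (vertical axis) against its distance from the first probe of the island in bases (horizontal axis) at 4 called islands, for sorted beta cells, both pancreas arrays, Min6 and aTC, with the range of 14 other tissue arrays in grey. Red points stand above both pancreas arrays at all 4 probes of Foxa2 and all 13 of Celsr3, and below them at all 5 of Nod1 and all 5 of Gnaz.

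By the broader rule of a gap over 0.5 beyond both pancreas arrays, a description with no test, 677 islands (5.07%) were higher and 886 (6.64%) lower in beta cells. The gaps nearest the limit were 0.5009 inside and 0.49997 outside on the higher side. With no minimum gap, 5093 islands (38.2%) were above both pancreas arrays, 4569 (34.2%) below both and 3679 between them. The median difference over all islands was 0.02, and its 10th and 90th percentiles were -0.48 and 0.45. The split depended on the scaling: after quantile normalization 604 islands were higher and 484 lower, with log2 ratios left unscaled 275 and 1135, and after normexp 1191 and 550.

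Any single array of another source also left many islands beyond both pancreas arrays. Over the 14 arrays of other adult tissues the count ranged from 255 to 622 higher (median 351.5) and from 252 to 1061 lower (median 548). The beta cell array had more higher islands than each of the 14, and 1 of them had at least as many lower islands. The cell lines had far more, with 2015 higher and 1507 lower in Min6 and 2474 and 2230 in aTC. These counts share the pancreas arrays and are set side by side only.

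**Figure D3:**
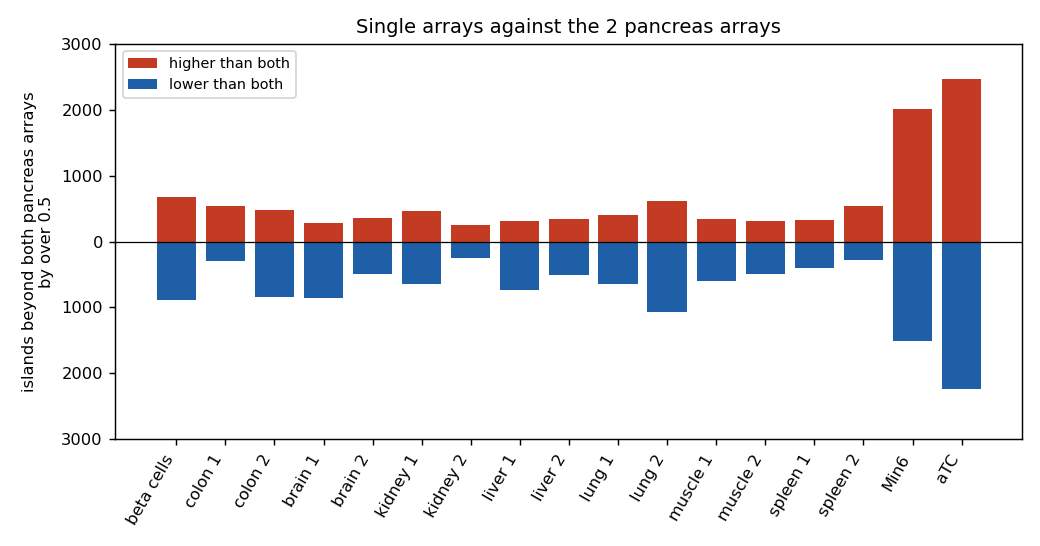
Number of autosomal islands (vertical axis) at which each single array (horizontal axis) lay over 0.5 above both pancreas arrays (red, upward) or below both (blue, downward). The beta cell array had 677 and 886, the 14 tissue arrays 255 to 622 and 252 to 1061, and Min6 and aTC more in both directions.

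Islands that changed sides of the study's thresholds were rare. In beta cells 45 islands (0.337%) scored above 0.75 while both pancreas arrays were below 0, and 19 (0.142%) scored below 0 while both were above 0.75. On single arrays of other tissues the same counts were 12 to 42 (median 24.5) and 8 to 43 (median 16). Min6 had 670 and 46 and aTC 925 and 24. Besides the called islands, 3 of the 45 are described here, chosen after their values were seen. Mapt, which encodes the microtubule protein tau, scored 1.88 against -0.36 and -0.07 in pancreas. Lmx1b, a LIM homeobox factor, scored 1.93 against -0.15 and -0.01. Grin1, the obligate subunit of NMDA receptors, scored 1.31 against -0.29 and -0.79, and 2.30 in Min6. Limma called none of these 3, with adjusted p from 0.06 to 0.19.

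Gene starts were among these islands as well. Mlkl, the effector of necroptosis, scored 1.23 over 4 probes across its start, against -0.32 and -0.33 in pancreas, -0.82 in Min6 and -0.85 in aTC. Dph6, an enzyme of diphthamide synthesis, scored 1.11 over 3 probes at its start, against -0.94 and -0.57 in pancreas, and -0.73 and -0.88 in the lines. Both, chosen after their values were seen, were higher in sorted cells than in every tissue array and in both lines, and neither was called (adjusted p = 0.19 for Mlkl and 0.17 for Dph6). Over all 16 tissue arrays together, 136 islands were higher in beta cells by over 0.5 than on every array and 118 lower. Of the 136, 30 were unmethylated on all 14 non-pancreas arrays, beside 4742 of all 13341 islands. In Min6 80 of the 136 were above 0.75 and in aTC 70, with no share over all islands given here to set beside them. Both lines were high at many islands: 670 in Min6 and 925 in aTC were above 0.75 with both pancreas arrays below 0. These counts therefore do not show that the sorted cells share methylation with the lines.

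**Figure D4:**
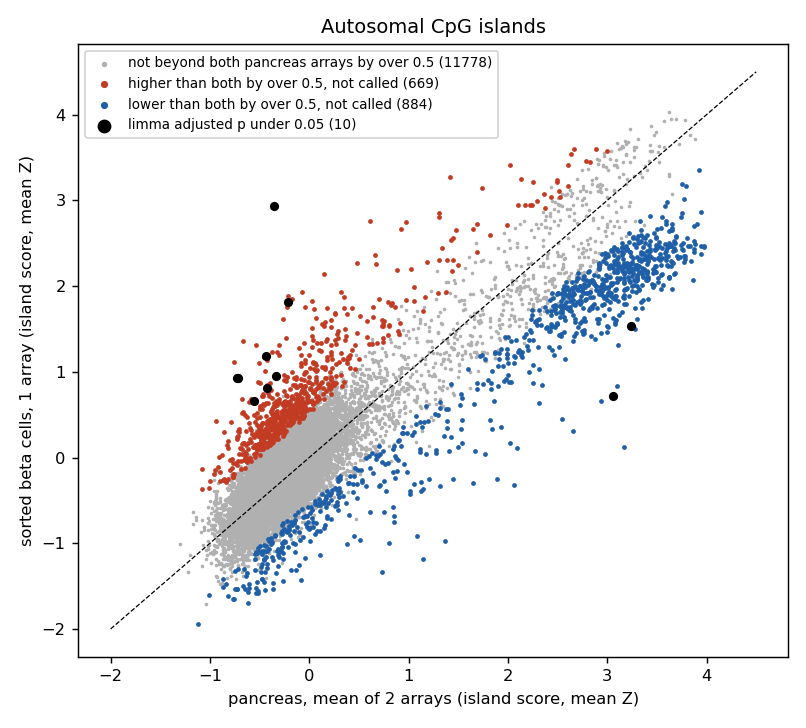
Island score (mean Z) in the sorted beta cells (vertical axis, 1 array) against the mean of the 2 pancreas arrays (horizontal axis) for 13341 autosomal islands, with the line of equal scores dashed. Red and blue points lie over 0.5 above or below both pancreas arrays, black points are the 10 islands called by limma, and at high pancreas scores most points fall below the dashed line.

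Many of the lower islands were ones that are methylated in all tissues. Of 1005 islands above 0.75 on all 14 non-pancreas arrays, a class set without the arrays compared, 556 (55.3%) were lower in beta cells and 33 (3.28%) higher. They made up 62.8% of all lower islands, but 183 of 484 after quantile normalization, and their median difference was -0.69. Their median score was 2.13 in beta cells, 2.85 and 2.80 in pancreas, 1.94 in Min6 and 1.71 in aTC, so the class as a whole remained far above 0.75 in the sorted cells. Among 4742 islands below 0 on the same 14 arrays, 120 (2.53%) were higher and 90 (1.90%) lower, with a median difference of -0.02.

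Arrays read with the same software version as the beta cells were compared at these islands. The array of the youngest embryo, read with the same version as the beta cells, had a median of 2.39 in the methylated class, against 2.80 for the other embryos, read with another version. At the 886 lower islands it was lower than the other embryos, with a median difference of -0.46, and it was higher at 14.1% of them. Over all islands its median difference was 0.02, and it was higher at 53.3%. At the 677 higher islands it was above by a median of 0.12 and higher at 65.4% of them. After quantile normalization the median difference of the class was -0.16, with 136 islands higher and 183 lower. The youngest embryo also differs from the others in age, slide and scan day. Of the undifferentiated ES cell lines, TT2 was read with the version of the beta cells and EB5 with that of the tissues. TT2 differed from EB5 by a median of -0.17 at the lower islands and was higher at 35.2% of them. At the higher islands it was above by a median of 0.13 and higher at 64.3%. Over all islands these were 0.04 and 54.8%. Software version and cell source cannot be told apart for the beta cells.

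Position within the gene went along with these counts. Of 6588 islands inside genes within 1000 bases of the start, 229 (3.48%) were higher and 161 (2.44%) lower. Of 1095 islands over 5000 bases inside, 95 (8.68%) were higher and 329 (30.0%) lower. Islands annotated as promoter numbered 2518, with 140 (5.56%) higher and 85 (3.38%) lower. After quantile normalization the islands deep inside genes had 165 higher and 129 lower, so their excess of lower islands depended on the scaling.

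The genes that define beta cells had islands beyond both pancreas arrays in either direction. Of 46 genes of beta cell identity and insulin secretion, 25 have 44 scored islands, of which 6 (13.6%) were higher and 8 (18.2%) lower, beside 5.07% and 6.64% of all islands. These shares of all islands stand as the background of every list below. All lists were chosen with earlier results of these data known, so the shares are a description. Limma called 1, Foxa2, and the median difference was -0.07, beside 0.02 over all islands. Pdx1, the homeobox factor of pancreas and beta cells, scored -0.31 at its start in beta cells and -0.47 and -0.69 in pancreas, unmethylated in all. An island 4411 bases inside Pdx1 scored -0.97, against -0.47 and -0.04. In aTC the Pdx1 start scored 1.77, while Min6 scored -0.55.

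Other identity factors lay near or below the pancreas. Nkx6-1, a homeobox factor of mature beta cells, scored 0.24 in beta cells against -0.03 and 0.11. Mafa, an activator of the insulin gene, scored -0.03 against -0.19 and -0.44, and Neurod1, a basic helix-loop-helix factor of endocrine cells, -0.27 against 0.20 and 0.19. At the island with most probes of Nkx2-2, a homeobox factor required for beta cells, the scores were -0.58 in beta cells and -0.02 and 0.05 in pancreas. Nearer its start, another Nkx2-2 island scored -0.33 against 0.43 and 0.97, where the highest array of another tissue was at 0.01. Pax6, a paired-box factor of all islet cells, scored -0.57 over 17 probes around its start, against -0.13 and -0.28, and -1.69 at an island 5087 bases inside, against -0.47 and -0.77. Among the 8 beta cell markers with islands, 5 of 17 islands were lower and 0 higher, beside 6.64% and 5.07% of all islands.

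Insm1, a zinc-finger factor of endocrine cells, lay on the higher side at both of its islands, chosen after their values were seen. It scored 0.27 over 17 probes around its start, against -0.52 and -0.42 in pancreas, and 1.31 at an island upstream, against 0.41 and 0.02. Among genes of other islet cells, 11 of 20 have 16 islands, of which 3 (18.8%) were higher and 0 lower. Fev, an ETS factor of serotonergic neurons and endocrine progenitors, had the largest difference, with 1.07 inside the gene in beta cells, -0.32 and 0.14 in pancreas and 2.13 in Min6. Etv1 was at the other end, at -0.69 against -0.38 and -0.38.

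Markers of the other cells of the pancreas gave a mixed picture. Of the acinar genes, 9 of 36 have 16 islands, with 1 (6.25%) higher and 3 (18.8%) lower, beside 5.07% and 6.64% of all islands. Rbpjl, a subunit of the acinar PTF1 complex, scored 2.39 and 2.24 in pancreas before its start, above every other tissue array, and 1.03 in beta cells, a difference of -1.29 ± 0.48 (SE) with an adjusted p of 0.36. Gata4, a zinc-finger factor of acinar development, was higher at 0.79 against 0.03 and -0.13. Ptf1a, the acinar basic helix-loop-helix factor, scored -0.48, -0.46 and -0.42 on the beta cell and the pancreas arrays, and Nr5a2, an orphan nuclear receptor of acinar cells, -0.82 against -0.61 and -0.49.

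Ductal genes with islands numbered 16 of 26, with 22 islands, 1 (4.55%) higher and 3 (13.6%) lower. Krt7, a keratin of ducts, was below 0 in beta cells at -0.29, but 1.00 and 1.26 in pancreas and 1.29 or more on all other tissue arrays. The Krt7 difference of -1.42 ± 0.71 (SE) was not called. Min6 at -0.57 was on the side of the sorted cells and aTC at 2.00 was not. Krt19, a further ductal keratin, went the other way, with 0.64 in beta cells, -0.69 and -0.52 in pancreas and 1.95 in Min6, and just missed a call (difference 1.25 ± 0.21, adjusted p = 0.06). Sox9, a ductal factor of the SOX family, was unmethylated on all 3 arrays, at -0.54 against -0.28 and -0.47.

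In stellate cells and mesenchyme, 3 of 42 islands (7.14%) were higher and 5 (11.9%) lower. In endothelial cells these were 1 (4.17%) and 5 (20.8%) of 24, and in blood cells 2 (5.41%) and 7 (18.9%) of 37, beside 5.07% higher and 6.64% lower over all islands. Foxf1, a forkhead factor of gut mesenchyme, had the lowest difference of the mesenchyme list, with -0.997 in beta cells and 0.87 and 0.74 in pancreas. Barx1, a homeobox factor of stomach mesenchyme, had the highest, with 0.30 against -0.53 and -0.50. Fli1, an ETS factor of endothelium and blood, scored 0.43 against 1.40 and 1.36, and Esam, an endothelial adhesion molecule, 0.52 against -0.44 and -0.92. Gfi1, a zinc-finger repressor of blood cells, was below 0 in beta cells at -0.75 and methylated in pancreas at 0.83 and 0.87. Other tissue arrays ranged from -0.43 to 3.39 at this island, with liver replicate 1 and brain replicate 2 also below 0. Tcf7, a factor of T cells, scored 0.50 against -0.59 and 0.10. Limma called none of these islands.

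Of 26 islands of genes that beta cells hold low, 0 were higher and 1 (3.85%) lower, near the shares of all islands (5.07% and 6.64%). Hk1, a high-affinity hexokinase, had that island, at 2.07 against 2.89 and 3.06, past the end of the gene, while its island with most probes scored -0.50 against -0.74 and -0.66. Ldha, lactate dehydrogenase A, scored -0.31 against -0.35 and -0.61, and Slc16a1, a transporter of lactate and pyruvate, 0.10 against -0.57 and -0.28. None of the 26 islands scored above 0.75 in beta cells while both pancreas arrays were below 0. Neuronal genes that islet cells also use had 4 of 35 islands (11.4%) higher and 3 (8.57%) lower. The called Celsr3 island is among the 4. Stx1a, a SNARE protein of exocytosis chosen after its value was seen, scored 2.85 against 1.21 and 1.41.

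**Figure D5:**
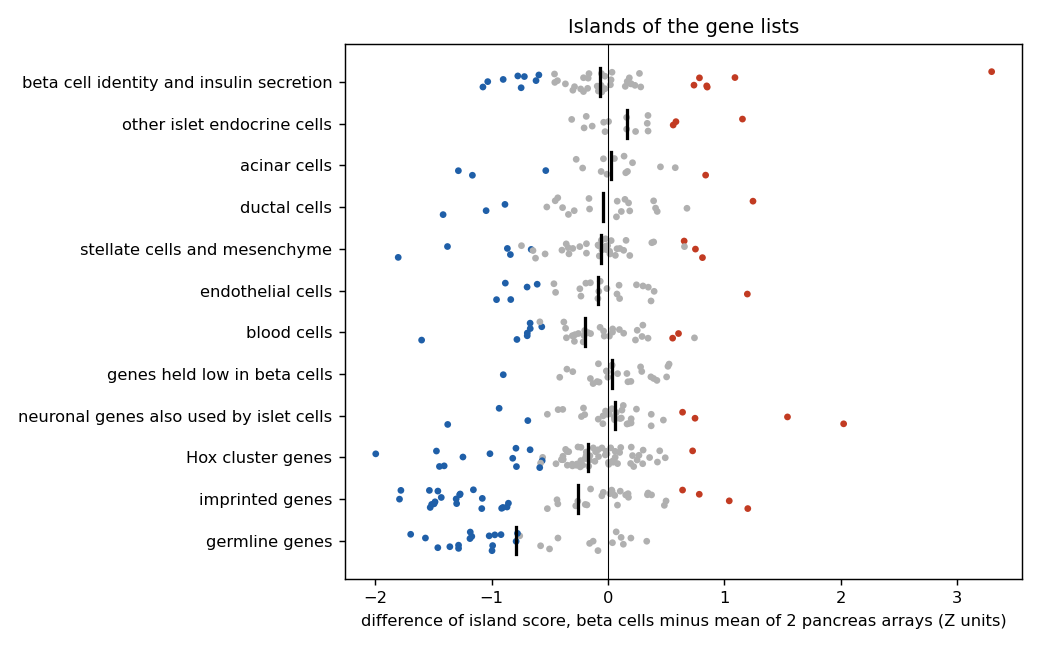
Difference of the island score, beta cells minus the mean of 2 pancreas arrays (horizontal axis, Z units), for each island of 12 gene lists (vertical axis). Points are islands, red and blue those over 0.5 above or below both pancreas arrays, grey the rest, and black bars list medians. The germline list has its median at -0.79 and the imprinted list at -0.26, while the others lie between -0.20 and 0.16.

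Hox cluster genes give cells their position along the body axis. Of 73 islands of 40 genes, 12 (16.4%) were lower and 1 (1.37%) higher, beside 6.64% and 5.07% of all islands, with a median difference of -0.17, and after quantile normalization 11 were lower. They supplied 4 of the 19 islands (0.142% of all 13341) that were below 0 in beta cells and above 0.75 on both pancreas arrays. These 4 belong to Hoxd4 and Hoxb3 only. The Hoxb3 islands scored -0.40 against 0.76 and 1.27, and -0.17 against 0.76 and 0.94. At both, liver replicate 1 and brain replicate 2 were also below 0. Hoxd4 had both an island at -0.91 against 0.91 and 1.27 and a neighbouring island at -0.25 against 1.22 and 1.18. At the first of these 9 of the 14 other tissue arrays were below 0, and the 14 ranged from -0.94 to 1.98. The 2 arrays of colon (-0.15 and 0.15), kidney (-0.19 and 1.37), lung (1.87 and -0.14), muscle (-0.58 and 1.70) and spleen (1.98 and -0.13) fell on both sides of 0. Hoxa13 was the only higher island of the list, at 0.47 against -0.21 and -0.31, with 1.38 in Min6 and 1.65 in aTC.

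Imprinted genes, at which the methylation of the parental copies differs, had 20 of 49 islands (40.8%) lower and 4 (8.16%) higher, with a median difference of -0.26. Over all islands 6.64% were lower, and among those methylated in all other tissues 55.3%. Impact scored 1.31 against 3.24 and 2.97. Mest scored 1.50 against 3.28 and 3.27, and Peg3 1.62 against 2.99 and 2.80, both chosen after their values were seen. In beta cells 28 of the 49 islands still scored above 0.75, and 26 did so on both pancreas arrays. Dio3, a deiodinase, was the highest of the list, with 0.42 against -0.82 and -0.75, and 2.01 and 1.93 in Min6 and aTC, but under normexp its difference was -0.23. Germline genes, silent in somatic cells, had 16 of 29 islands (55.2%) lower and 0 higher, beside 6.64% lower over all islands and 55.3% among those methylated in all other tissues. Ddx4, an RNA helicase of germ cells, scored 1.96 against 3.86 and 3.45. Syce2, of the synaptonemal complex, was highest, at 0.09 against -0.30 and -0.20. Of these 29 islands 21 were above 0.75 in beta cells and 20 on both pancreas arrays, and the list median went from -0.79 to -0.38 after quantile normalization. Software version and cell source cannot be told apart here either.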

How the data were processed

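Bound DNA (Cy5) and input DNA (Cy3) were hybridised to Agilent mouse CpG island arrays. The authors extracted spot intensity and local background with Agilent Feature Extraction (10.5.1.1, 10.7.3.1 or 10.9.1.1, per the file headers), with background subtraction and linear dye normalization. The deposited scanner files give a log10 ratio of bound over input per probe, on which the results rest. Per the methods, the authors turned log ratios into a Z score by probe Tm, and their deposited table of this score served as an alternative. It correlated with the Z-scores computed here at r = 0.936 (beta cells) and 0.930 (both pancreas arrays).

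Control spots and flagged outliers were left out, the ratios of each array were scaled to Z-scores with no Tm step, and neighbouring probes up to 500 bases apart were joined into islands of at least 3 probes. Chromosomes X and Y were dropped. The beta cell grid holds 88737 probes and the pancreas grid 97651. Of 13341 islands, 11608 carry a gene name, updated through RefSeq (GRCm38.p6). Groups followed the labels. limma 3.58.1 (lmFit, eBayes) in R 4.3.3 was fitted on island scores with a coefficient per tissue and Benjamini-Hochberg adjustment, and was checked on simulated data. Other steps ran in Python 3.11.15 (pandas 2.3.3, numpy 2.4.6, scipy 1.17.1). The number of arrays limits the precision.

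The named islands were those called (up to 10 per direction), the highest and lowest of each gene list, and the island with most probes of further chosen genes. Some items that this rule picks are not reported here. The members and lists were chosen with earlier results of these data known. Alternatives covered scaling, background, probes, islands, thresholds, arrays, test and technical batch. Normexp used median signals, since mean signals are not in every file used here.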

Additional observations from a re-analysis of the deposited data

How the results depend on the processing

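The count of 10 islands called by limma moved with many choices. It was 1 with log2 ratios not divided by the SD, 29 with normexp, 39 with the deposited table, 19 without dim probes, 6 with probe medians, 6 with at least 5 probes, 27 after quantile normalization, 16 with a trend in eBayes, 3 at an adjusted p under 0.01, 27 at 0.1, 573 with beta cells and pancreas alone and 48 with embryos and ES cells added. By the methods' t-test 979 islands had a p under 0.05 without adjustment and 0 with it. Leaving out 1 array gave 2 (without pancreas replicate 1) to 15 (without either lung array). It gave 3 without pancreas replicate 2 or either colon array, 4 without muscle and 5 without kidney or spleen. With the software version as a term, chosen after seeing the data like normexp and the added arrays, 12 were called, 3 of them among the 10 (Foxa2, Celsr3 and Nod1). The islands higher by over 0.5 numbered 275 with unscaled log2 ratios, 1191 with normexp, 353 with the deposited table, 344 with at least 5 probes, 1984 at a gap of 0.25, 243 at 0.75 and 1220 to 1376 with 1 pancreas array left out. The lower ones numbered 550 with normexp, 331 with the table, 446 with at least 5 probes, 484 after quantile normalization, 1864 and 481 at these gaps and 1412 to 1534 with 1 pancreas array left out. Islands above 0.75 in beta cells and below 0 on both pancreas arrays numbered 19 with unscaled ratios, 138 with normexp, 28 with the table, 14 with at least 5 probes, 80 with sex chromosomes kept, 144 and 21 at thresholds of 0.5 and 1, and 74 to 99 with 1 pancreas array left out. Islands of the opposite kind numbered 3, 9, 12 and 38 with normexp, the table, at least 5 probes and quantile normalization, 37 and 9 at these thresholds, and 33 to 42 with 1 pancreas array left out. Of 505 recomputed differences at 41 named islands, 442 kept their direction and side of the threshold, 46 lost the call, 3 gained it and 14 changed sign. With the software term the sign changed at Nr5a2 (0.31), Hk1 (-0.37), Barx1 (-0.0798), Mafa (-0.0530), Pdx1 (-0.20), Syce2 (-0.0920) and Esam (-0.18). With normexp it changed at Dio3 (-0.23), Barx1 (-0.0045), Pdx1 (-0.0489) and Ldha (-0.0696), and with the table at Hk1 (-0.0219) and Ptf1a (0.0305). It also changed at Ptf1a with probe medians (0.0372). The causes were not tested beyond fewer islands or arrays entering some of these. No paired analysis was possible because there is 1 beta cell array and nothing in the labels links it to a pancreas array. With 1 beta cell array, differences near the gap of 0.531 that the pancreas arrays reach at their 90th percentile are within the spread of single arrays.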

Other observations

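Islands on the X chromosome, left out above, had a median score of 0.69 in beta cells and 0.07 and 0.04 on the pancreas arrays over 380 islands. The 7 adult arrays labelled female lay between 0.865 and 2.00 and the 9 labelled male between -0.047 and 0.109, so the beta cell array was outside both ranges. In beta cells 35 X-linked islands were above 0.75 while both pancreas arrays were below 0.

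Across islands, the array labelled as J1 ES cells correlated with pancreas replicate 2 at r = 0.964 and with pancreas replicate 1 at 0.926. With the ES cell lines EB5 and TT2 it correlated at 0.791 and 0.803. The pancreas arrays correlated with each other at 0.935 and with beta cells at 0.858 and 0.881. Arrays of other organs came as close: pancreas replicate 1 correlated with kidney replicate 2 at 0.941, and pancreas replicate 2 with spleen replicate 1 at 0.933. These values are a description over 13341 islands, which are not independent, and the J1 array entered no fit.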
